A study of Homo sapiens with 2 samples.

Results

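Transcripts of 54 genes that drive the G1/S transition and DNA replication were compared between a PHF12 knockdown library and a control library of H1299 cells. The 54 genes were taken by symbol from a table of 38637 genes, and all 54 were found in it. They were placed in 5 steps: E2F factors (3 genes), origin licensing (8), the replicative helicase and its activation (14), polymerases with clamp, loader, single-strand binding and strand maturation (21), and chromatin assembly with fork protection (8). Relative to the control library, the knockdown library held less transcript of 44 of the 54 genes (81.5%), by small amounts, against 51.6% of all genes measured, and of 38 to 40 of the 54 under the other scalings. The median ratio was 0.942, against 0.995 over all genes measured. The helicase subunits MCM2, MCM4, MCM5, MCM6 and MCM7, the licensing factor CDT1, the kinase subunit DBF4, E2F1 and E2F2 were lower. So were the polymerase delta subunits POLD1, POLD2 and POLD3, while MCM3, the remaining ring subunit, lay nearer to no difference. ORC2, RFC1, TIMELESS, E2F3 and ORC3 were higher, as was the delta subunit POLD4, which was not among the 54 genes.

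H1299 is an established lung carcinoma line of human origin. There were 2 poly(A)-selected RNA-seq libraries of these wild-type cells, 1 per group: the PHF12 knockdown, titled with an si prefix, and the control, labelled as having no treatment and titled with nc at the end. Neither the reagent and duration of the knockdown nor any oligonucleotide in the control cells is named in the labels used here. PHF12 encodes a PHD-type zinc finger protein of a Sin3 and HDAC corepressor complex.

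Replication is prepared in G1, when the origin recognition complex, CDC6 and CDT1 load the MCM2 to MCM7 ring onto DNA as an inactive double ring. At the start of S phase the CDC7 kinase with its activator DBF4, followed by CDC45, GINS and MCM10, turns the ring into a moving helicase, and polymerases alpha, delta and epsilon copy the strands with the sliding clamp PCNA. Most of these genes are transcribed in late G1 by E2F factors after the retinoblastoma proteins release them, and E2F sites close to the transcription start are a known feature of their promoters. Geminin, encoded by GMNN, blocks a second round of licensing by binding CDT1.

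The knockdown library held 26084594 counts and the control library 24740581 counts. Ratios below are the knockdown level over the control level after scaling by trimmed mean of M-values (TMM). Their 95% intervals are exact for the ratio of 2 Poisson counts and cover counting error only. With 1 library per group nothing could be tested between conditions, so each difference describes these 2 libraries and may be technical. Genes were counted by size, as at least 1.2-fold or at least 1.5-fold lower or higher, and the counts over the 54 genes are set beside the share of all 14559 genes measured that passed the same rule. A gene was taken as measured when its scaled counts averaged 1 CPM or more, on a scale where a library sums to 1000000. All 54 replication genes passed that filter, the lowest at a mean of 9.09 CPM. PHF12 itself had 756 counts in the knockdown library and 947 in the control library, a ratio of 0.753 (0.683 to 0.829), so the targeted transcript was lower by a modest amount. A smaller ratio than that of PHF12 was found for 5.74% of genes measured. Levels in TPM are length-scaled shares of a library, set to the same sum. The 6 markers fixed for a lung carcinoma line summed to 7539 TPM in the knockdown library and 8689 TPM in the control library. VIM held 4876 and 5349 TPM of these in that order, and KRT8 and KRT18 were the other abundant ones. KRT7 stood at 2.08 and 2.94 TPM in the same order. EPCAM, at 1.74 and 1.38 TPM, did not pass the filter, and CDH1, the epithelial cadherin, had no count in either library. Lung differentiation, blood, endothelial and fibroblast markers each summed to at most 1.31 TPM in either library.

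E2F consensus letters near the start were more frequent in these genes than in promoters at large, so 7 promoter windows are shown before the values. They are those of the genes at least 1.2-fold lower for which a promoter sequence was available here, which leaves out POLD3. That of ORC2, the gene with the highest ratio, is added. Each runs from 120 bases before to 30 bases after the annotated transcription start (RefSeq, GRCh38.p14), 5′ to 3′ on the strand of the gene. Capitals mark every match to TTTCCCGC, TTTGGCGC, TTTCGCGC or TTTGCCGC, the 4 spellings of the E2F consensus searched, on either strand. On a palindrome the matches on the 2 strands overlap.

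E2F1 (chr20:33686356-33686505, minus strand): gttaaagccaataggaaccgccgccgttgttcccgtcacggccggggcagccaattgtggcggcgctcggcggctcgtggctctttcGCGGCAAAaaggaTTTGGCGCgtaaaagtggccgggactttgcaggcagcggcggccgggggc
E2F2 (chr1:23531204-23531353, minus strand): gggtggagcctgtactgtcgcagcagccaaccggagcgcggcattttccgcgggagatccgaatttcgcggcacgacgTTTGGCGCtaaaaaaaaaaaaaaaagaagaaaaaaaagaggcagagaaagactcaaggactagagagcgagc
CDT1 (chr16:88803669-88803818, plus strand): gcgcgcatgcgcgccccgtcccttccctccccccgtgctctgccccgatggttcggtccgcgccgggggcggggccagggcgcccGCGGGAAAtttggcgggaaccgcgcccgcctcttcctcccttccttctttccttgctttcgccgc
MCM2 (chr3:127598291-127598440, plus strand): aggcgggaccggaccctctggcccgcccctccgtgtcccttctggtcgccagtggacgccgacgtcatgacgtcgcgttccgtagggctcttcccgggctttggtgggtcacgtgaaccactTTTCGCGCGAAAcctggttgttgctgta
LIG1 (chr19:48170315-48170464, minus strand): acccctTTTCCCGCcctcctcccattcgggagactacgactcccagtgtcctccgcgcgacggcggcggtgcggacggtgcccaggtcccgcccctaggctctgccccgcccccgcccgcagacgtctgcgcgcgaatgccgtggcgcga
DBF4 (chr7:87876373-87876522, plus strand): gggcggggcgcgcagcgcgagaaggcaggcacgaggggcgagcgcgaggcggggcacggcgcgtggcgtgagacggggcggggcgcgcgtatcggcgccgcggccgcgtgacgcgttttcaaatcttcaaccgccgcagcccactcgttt
ORC2 (chr2:200963631-200963780, minus strand): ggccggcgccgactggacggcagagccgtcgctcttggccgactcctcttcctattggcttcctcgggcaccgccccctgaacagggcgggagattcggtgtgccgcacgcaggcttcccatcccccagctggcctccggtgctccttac

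The windows of E2F1, E2F2, CDT1, MCM2 and LIG1 each held at least 1 match, and those of DBF4 and ORC2 held none. In the E2F1 window the matches began 33 and 20 bases before the start. In that of MCM2 a palindrome read on both strands lay just after the start. Over the whole deposited window of 250 bases before to 50 after the start, a promoter sequence was available for 48 of the 54 genes, and 22 of these 48 (45.8%) held a match, against 3.33% of all 27305 promoters and 5.46% of the 10329 promoters of protein-coding genes measured. By step, a match was found for 3 of 3 E2F factors, 3 of 8 licensing genes, 7 of 11 helicase genes, 7 of 18 polymerase genes and 2 of 8 chromatin and fork genes. The first match lay within 100 bases of the start in 17 of the 22. A CCAAT box, CCAAT on either strand, was present in 27 of 48 windows (56.2%). This stands against 35.7% of all promoters and 36.7% of those of protein-coding genes measured. TTTGAA, the core of the CHR element known from G2/M promoters, was present in 2 (4.17%), those of E2F3 and DBF4. The share was 15.4% for all promoters and 9.5% for those of protein-coding genes measured. A match is a run of letters and not a measured binding site, and a window without one says nothing about the factor.

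Replication transcripts were abundant in both libraries. Their median level was 34.2 TPM in the knockdown library and 37.9 TPM in the control library, against medians of 17.4 and 17.1 TPM over all genes measured in the same order. Together they made up 0.326% of the TPM total in the knockdown library and 0.353% in the control library. MCM7 was the most abundant, at 505 TPM in the knockdown library and 574 TPM in the control library, and E2F2 the least, at 5.26 TPM and 7.42 TPM. TPM are per listed gene length, and the listed length of 11245 bases for RFC3 is the longest among them, beside a level of 7.66 TPM in the knockdown library and 8.27 TPM in the control library.

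**Figure D1:**
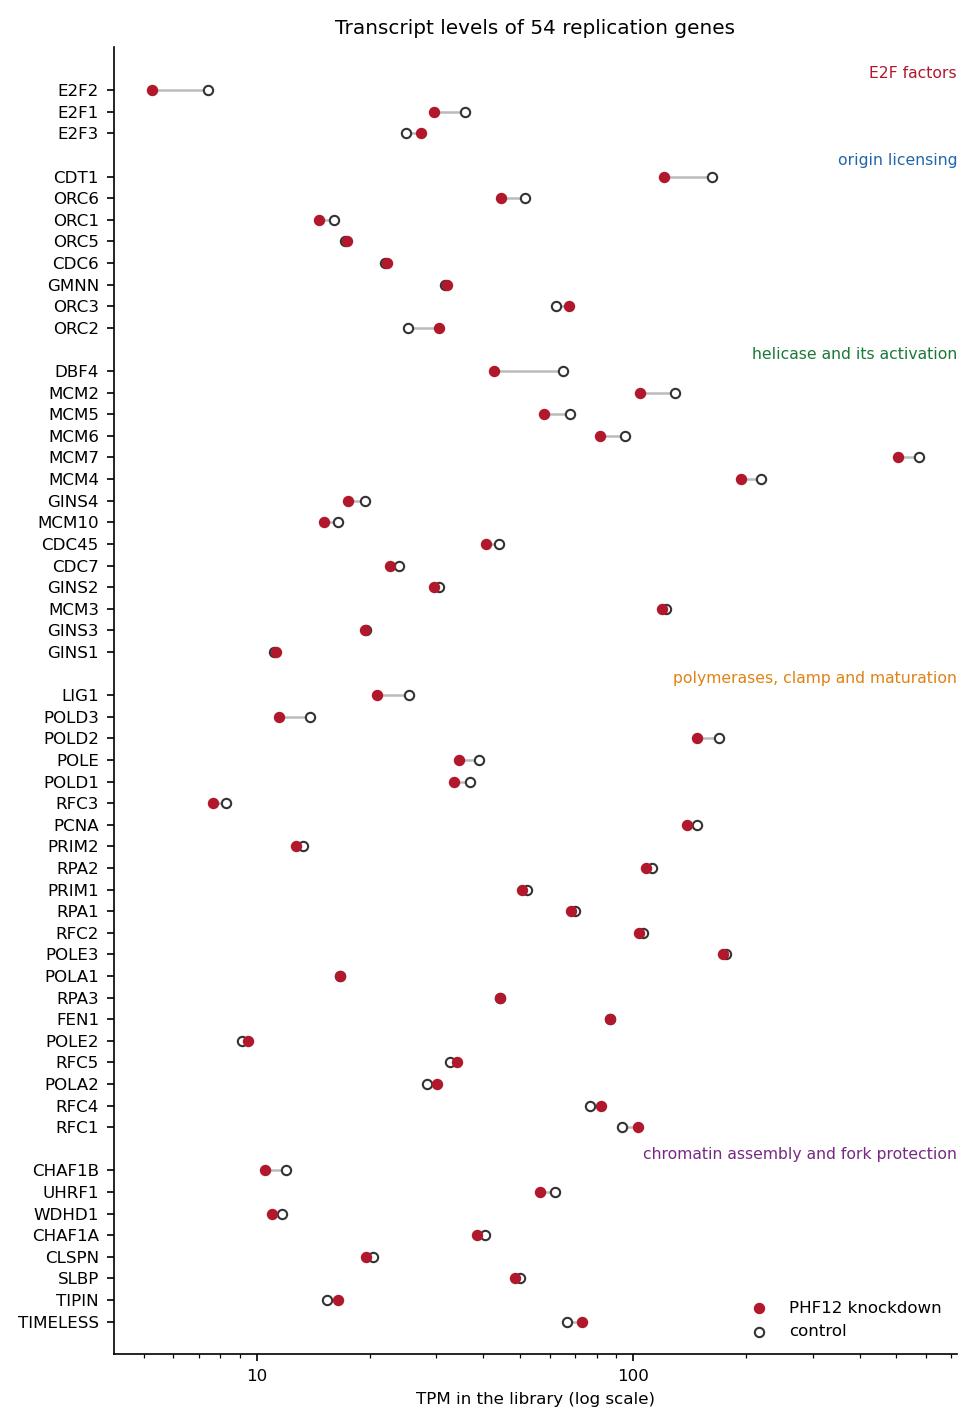
Level of each replication gene in TPM (log axis), grouped by step; filled red points are the PHF12 knockdown library and open points the control library, 1 library each. The pairs lie close together, and the knockdown point is to the left for most genes, most visibly for DBF4, E2F2 and CDT1.

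Of the 54 genes, 44 (81.5%) had a ratio under 1, against 51.6% of all genes measured. With DESeq2 size factors or total counts 40 did and on the deposited TPM 38, since ORC5, CDC6, GMNN and GINS1, and on TPM also RPA3 and FEN1, lie close to 1. With TMM scaling the interval lay below 1 for 20 genes (37.0%) and above 1 for 5 (9.26%). Of all genes measured, 20.9% had an interval below 1 and 20.3% one above. Intervals were not computed under the other scalings. Those of CDC45, GINS4 and PCNA ended close to 1, at 0.995, 0.992 and 0.989, and that of ORC3 began at 1.001. Intervals narrow as counts rise, and the replication genes had a higher median level than all genes measured. The shares are therefore not matched for level. The differences were small: 7 genes (13.0%) were at least 1.2-fold lower, which is near the 12.9% of all genes measured, and none was at least 1.2-fold higher, against 11.7%. Without the 17 genes that overlap a listed gene on the other strand, 4 were at least 1.2-fold lower, as E2F2, MCM2 and LIG1 are among the 17. The genes that overlap E2F2 and LIG1 were too low to be measured, and the one that overlaps MCM2 was measured. Only DBF4 was at least 1.5-fold lower, against 2.29%. Split by control level into groups of 18, the lowest genes had a median log2 ratio of −0.10, the middle −0.07 and the highest −0.10. In cultured cells taken as a whole, fewer cells in S phase and less transcript per cell cannot be told apart.

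**Figure D2:**
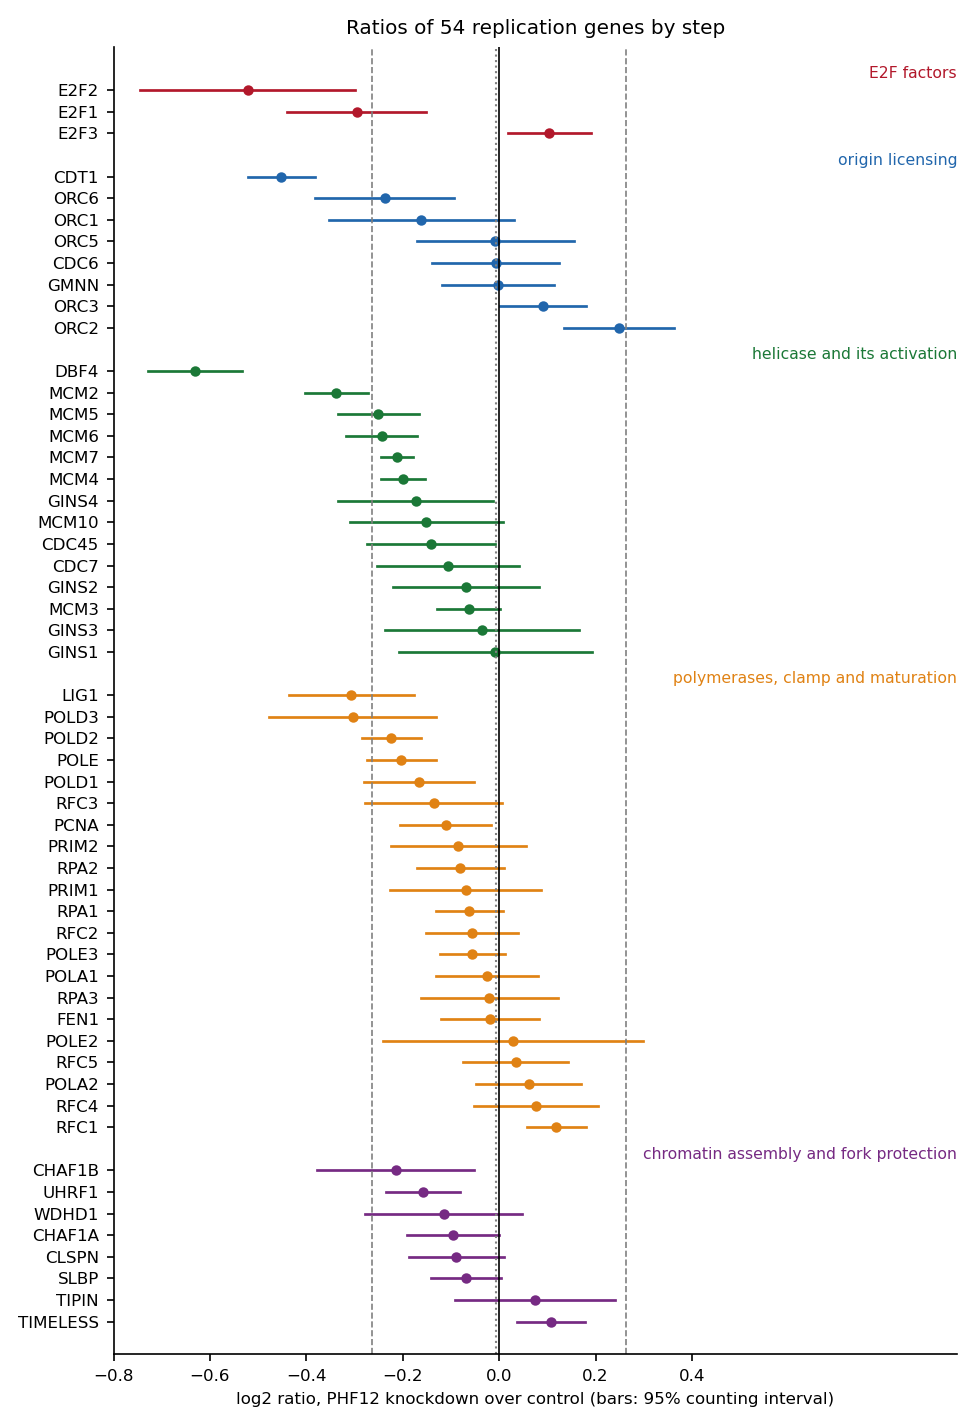
Log2 ratio of PHF12 knockdown over control for each replication gene, with bars for the 95% counting interval and 1 library per group; the solid line marks no difference, the dotted line the median of all genes measured and the dashed lines a 1.2-fold difference. All 14 helicase genes lie at or left of 0 with TMM scaling, GINS1 crossing it under the other scalings, while the polymerase and licensing genes straddle it.

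The E2F activators head the pathway, and they were not all on the same side. E2F1 spans 33675477 to 33686385 of chromosome 20 (hg38, minus strand). It had 737 counts in the knockdown library and 853 in the control library, or 29.6 TPM and 35.7 TPM. Its ratio was 0.815 (0.737 to 0.9002). E2F2 spans 23505696 to 23531250 of chromosome 1 (minus strand), and it had 291 counts in the knockdown library and 394 in the control library, a ratio of 0.696 (0.596 to 0.812). E2F3 stood on the other side, with 2305 counts in the knockdown library and 2022 in the control library, a ratio of 1.07 (1.01 to 1.14). So the most abundant activator of the control library by TPM, E2F1, was lower, and E2F3, at 27.3 TPM in the knockdown library and 24.9 TPM in the control library, was not.

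Origin licensing was split between CDT1, which was lower, and the recognition complex and CDC6, which were not lower together. CDT1, the factor that brings the MCM ring to the origin, spans 88803789 to 88809258 of chromosome 16 (plus strand). It had 2983 counts in the knockdown library and 3847 in the control library, or 121 TPM and 162 TPM. Its ratio of 0.731 (0.697 to 0.767) was among the lower ones, as 4.53% of genes measured had a smaller one. GMNN, its inhibitor, had 1244 counts in the knockdown library and 1175 in the control library, a ratio of 0.998 (0.921 to 1.08). CDC6, the ATPase that works with CDT1 in loading, had 969 counts in the knockdown library and 918 in the control library, a ratio of 0.995 (0.909 to 1.09). CDT1 transcript was thus lower while the intervals of its inhibitor and of its loading partner held 1, and under each of the other scalings GMNN, CDC6 and ORC5 passed to the other side of 1.

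The 5 origin recognition complex genes ran in both directions. ORC2 spans 200908977 to 200963701 of chromosome 2 (minus strand). It had 1429 counts in the knockdown library and 1134 in the control library, and its ratio of 1.19 (1.10 to 1.29) was the highest of the 54. It passed the 1.2-fold rule with DESeq2 size factors and on the deposited TPM, and it overlaps a listed gene on the other strand that was too low to be measured. ORC3 had 2185 counts in the knockdown library and 1935 in the control library, a ratio of 1.06 (1.001 to 1.13). ORC6, the smallest subunit, had 752 counts in the knockdown library and 836 in the control library, a ratio of 0.848 (0.768 to 0.937). ORC1, the largest subunit, stood at 0.894 (0.783 to 1.02), and ORC5 at 0.995 (0.888 to 1.11). The median log2 ratio of the 8 licensing genes was −0.01, and it was 0.00 after scaling by total counts, 0.01 with DESeq2 size factors and 0.02 on the deposited TPM. It was −0.08 without the genes that overlap a listed gene on the other strand and −0.03 with the trend on GC content and transcript length removed, so its side of 0 depends on the processing.

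The helicase step was the most uniform in direction, though not in size. All 14 of its genes had a ratio under 1, with a median of 0.894, except that GINS1, at 0.995, passed to the other side of 1 under each of the other scalings. With TMM scaling the interval lay below 1 for 8 of the 14 (57.1%), against 20.9% of all genes measured, a share not matched for level. Those of CDC45 and GINS4 ended close to 1, at 0.995 and 0.992. The 6 ring subunits were lower together, with ratios between 0.791 and 0.957, and stayed under 1 under each scaling. Summed over the ring, the level was 1062 TPM in the knockdown library and 1208 TPM in the control library.

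MCM2, the ring subunit that also binds histones, spans 127598411 to 127622436 of chromosome 3 (plus strand). It had 3421 counts in the knockdown library and 4077 in the control library, a ratio of 0.791 (0.756 to 0.828), the lowest of the ring. A measured gene on the other strand, LOC107986126, overlaps it, and counts of such pairs cannot be assigned with certainty here. MCM5 had 2209 counts in the knockdown library and 2478 in the control library, a ratio of 0.841 (0.793 to 0.891), just short of 1.2-fold lower. MCM6 had 2843 counts in the knockdown library and 3174 in the control library, a ratio of 0.845 (0.803 to 0.889). The intervals of these 3 subunits overlapped and lay below 1.

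MCM7 had 14107 counts in the knockdown library and 15402 in the control library, a ratio of 0.864 (0.844 to 0.884). MCM4 had 7497 counts in the knockdown library and 8117 in the control library, a ratio of 0.871 (0.844 to 0.899). MCM3 had 3832 counts in the knockdown library and 3776 in the control library, a ratio of 0.957 (0.915 to 1.001). MCM3 was therefore the ring subunit nearest to no difference, and its interval lay above those of the other 5.

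Among the activators of the ring, DBF4 stood apart. DBF4, the regulatory subunit that switches on CDC7, spans 87876493 to 87909553 of chromosome 7 (plus strand). It had 1449 counts in the knockdown library and 2116 in the control library, or 42.8 TPM and 65.1 TPM. Its ratio of 0.646 (0.604 to 0.691) was the lowest of the 54, and 1.87% of genes measured had a smaller one. CDC7, the catalytic subunit, had 749 counts in the knockdown library and 760 in the control library, a ratio of 0.929 (0.839 to 1.03). The regulatory subunit was lower than the catalytic one in ratio, with intervals that did not overlap.

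The other activators differed little. CDC45, which rides with the ring, had 910 counts in the knockdown library and 946 in the control library, a ratio of 0.907 (0.827 to 0.995). MCM10, needed to start unwinding, stood at 0.901 (0.807 to 1.01). The 4 GINS genes ranged from 0.887 (0.794 to 0.992) for GINS4 to 0.995 (0.866 to 1.14) for GINS1, with GINS2 at 0.954 and GINS3 at 0.976. Their levels ran from 11.2 TPM for GINS1 to 40.6 TPM for CDC45 in the knockdown library, and their wide intervals limit what can be said of each.

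Of the polymerases, delta was lower in all 3 subunits listed, while the other enzymes were mixed. POLD3, an accessory subunit at 74592582 to 74669341 of chromosome 11 (plus strand), had 511 counts in the knockdown library and 595 in the control library, a ratio of 0.810 (0.718 to 0.913). POLD2, which holds the complex together, had 4132 counts in the knockdown library and 4549 in the control library, a ratio of 0.857 (0.821 to 0.894). POLD1, the catalytic subunit, had 1221 counts in the knockdown library and 1292 in the control library, a ratio of 0.891 (0.823 to 0.964). All 3 intervals lay below 1. POLD4, the small subunit that was not among the 54 genes, stood on the other side with 1093 counts in the knockdown library and 841 in the control library, a ratio of 1.23.

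Polymerase epsilon, which copies the leading strand, was lower in its catalytic subunit, while the intervals of its other subunits among the 54 genes held 1. POLE had 3032 counts in the knockdown library and 3291 in the control library, a ratio of 0.869 (0.827 to 0.913). POLE2 stood at 1.02 (0.846 to 1.23) and POLE3, a histone-fold subunit, at 0.962 (0.919 to 1.01). POLE4, a subunit that was not among the 54 genes, was lower too, at 0.868 (0.783 to 0.962). None of the 4 subunits of polymerase alpha-primase, which lays down primers, had an interval apart from 1, and their ratios ran from 0.943 for PRIM2 to 1.04 for POLA2. POLA1 and PRIM1 lay between them at 0.982 and 0.953.

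The sliding clamp was lower by a small amount, and the subunits of its loader ran in both directions. PCNA had 1801 counts in the knockdown library and 1834 in the control library, a ratio of 0.926 (0.867 to 0.989), and it overlaps PCNA-AS1 and has a listed pseudogene. RFC1, the large subunit of the loader, had 4678 counts in the knockdown library and 4064 in the control library, a ratio of 1.09 (1.04 to 1.13). The small loader subunits RFC2 to RFC5 ranged from 0.910 (0.825 to 1.004) for RFC3 to 1.05 (0.964 to 1.15) for RFC4, each with an interval that held 1. The clamp transcript was lower by a small amount and the large loader subunit higher.

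For the single-strand binding proteins all 3 intervals held 1, with RPA1 at 0.958, RPA2 at 0.946 and RPA3 at 0.986. On the deposited TPM, RPA3 and FEN1 passed to the other side of 1. Strand maturation was split. LIG1, the ligase that seals Okazaki fragments, spans 48115445 to 48170595 of chromosome 19 (minus strand). It had 901 counts in the knockdown library and 1051 in the control library, a ratio of 0.808 (0.739 to 0.884). FEN1, the flap nuclease that acts just before it, had 1625 counts in the knockdown library and 1553 in the control library, a ratio of 0.987 (0.920 to 1.06).

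**Figure D3:**
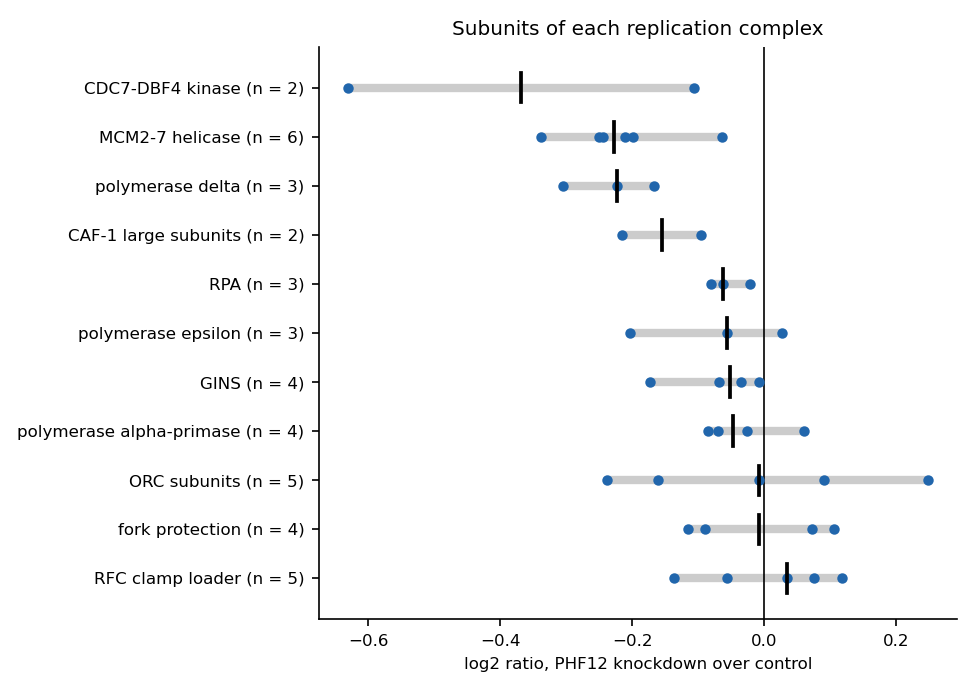
Log2 ratio of PHF12 knockdown over control for the subunits of each replication complex; points are genes, grey bars their range and black ticks their median. The MCM ring and the 3 listed polymerase delta subunits lie wholly left of 0, MCM3 nearest to it, and the RFC clamp loader and the ORC subunits lie on both sides. POLD4, which was not among the 54 genes, is not drawn.

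The 4 chromatin assembly genes listed here had ratios under 1, by small amounts. CHAF1B, a subunit of the histone chaperone CAF-1, had 593 counts in the knockdown library and 649 in the control library, a ratio of 0.862 (0.770 to 0.965). CHAF1A, its partner, stood at 0.936 (0.876 to 1.0004). UHRF1, which guides maintenance of DNA methylation behind the fork, had 2655 counts in the knockdown library and 2793 in the control library, a ratio of 0.896 (0.850 to 0.946). SLBP, which binds the stem-loop of replication-dependent histone mRNAs, had 3020 counts in the knockdown library and 2987 in the control library, a ratio of 0.953 (0.906 to 1.003). Of these 4 genes, CHAF1B and UHRF1 had an interval below 1. Chromatin genes that were not among the 54 ran in both directions. RBBP4 stood at 1.07, RBBP7 at 1.04, ASF1A at 1.06, NASP at 1.10 and SUPT16H at 1.11. DNMT1 stood at 0.998, ASF1B at 0.958, SSRP1 at 0.919 and TONSL at 0.824. The interval lay above 1 for RBBP4, RBBP7, NASP and SUPT16H and below 1 for SSRP1 and TONSL.

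The fork protection pair had ratios above 1. TIMELESS had 3487 counts in the knockdown library and 3054 in the control library, a ratio of 1.08 (1.03 to 1.13). Its partner TIPIN had 635 counts in the knockdown library and 569 in the control library, a ratio of 1.05 (0.938 to 1.18), and it overlaps MAP2K1 on the other strand. CLSPN, the checkpoint mediator claspin, stood at 0.940 (0.878 to 1.01) and WDHD1, which links helicase and polymerase alpha, at 0.923 (0.825 to 1.03). The intervals of TIPIN, CLSPN and WDHD1 all held 1.

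Genes with and without an E2F match were lower in similar shares. Of the 22 genes with a match 18 had a ratio under 1, with a median log2 ratio of −0.10, and of the 26 without a match 20 did, with a median of −0.07. At least 1.2-fold lower were 5 genes with a match (22.7%) and 1 without (3.85%), DBF4. Among all protein-coding genes measured, 10.5% of those with a match and 11.9% of those without were at least 1.2-fold lower, and their medians were both −0.01. ORC3, E2F3, POLA2 and POLE2 held a match and had ratios above 1.

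**Figure D4:**
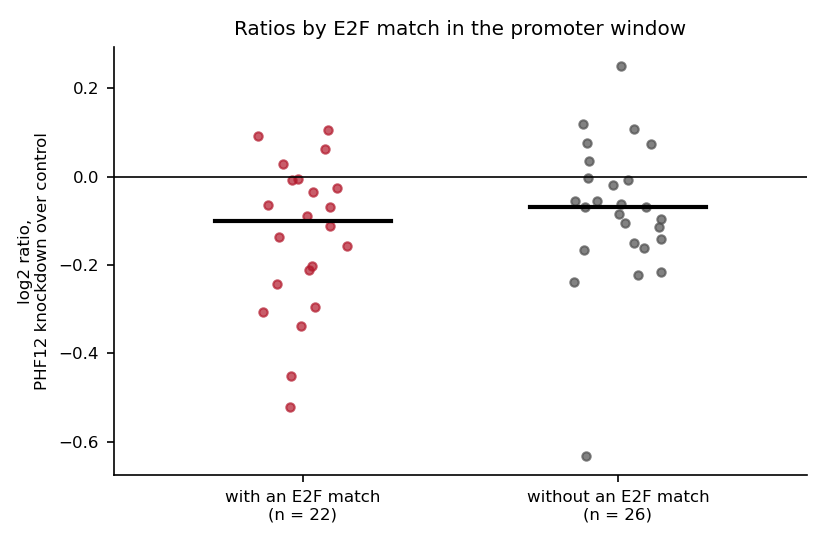
Log2 ratio of PHF12 knockdown over control for replication genes with and without an E2F match in the window of 250 bases before to 50 after the start; points are genes and bars are medians. The groups overlap over most of their range, and DBF4, the lowest point, has no match.

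Several replication genes start head to head with another gene, at most 1000 bases apart, and the neighbours shared the direction in some pairs only. Of the 15 such pairs with a measured neighbour, the replication gene was lower in 14 and the neighbour in 6, where 51.6% of all genes measured were lower. DBF4 and SLC25A40, a mitochondrial carrier gene starting 133 bases away, were both lower, the neighbour with 670 counts in the knockdown library and 781 in the control library, a ratio of 0.809. LIG1 and ZSWIM9, 67 bases apart, went opposite ways, ZSWIM9 having 453 counts in the knockdown library and 268 in the control library, a ratio of 1.59. PCNA and CDS2, 222 bases apart, were also opposite, CDS2 standing at 1.24. SLC25A40 was the 1 neighbour of 15 at least 1.2-fold lower, against 12.9% of all genes measured. ZSWIM9, CDS2 and HSD17B6, the neighbour of PRIM1, were the 3 at least 1.2-fold higher, against 11.7%.

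Genes around this machinery were described with the same measures. Of 22 G1/S control genes, 4 (18.2%) were at least 1.2-fold lower, against 12.9% of all genes measured, and 2 (9.09%) at least 1.2-fold higher, against 11.7%. Their median log2 ratio was −0.10. CCNE2, a cyclin E gene, had 344 counts in the knockdown library and 420 in the control library, a ratio of 0.772. CDK6, a partner of D-type cyclins, had 5865 counts in the knockdown library and 4347 in the control library, a ratio of 1.27. Of 31 other replication factors, 20 (64.5%) had a ratio under 1, against 51.6% of all genes measured, with a median of −0.06, and they ran from RNASEH2B, a ribonuclease H2 subunit, at 0.761 to POLD4.

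The other lists also had medians under 0, and no difference between lists was tested. The shares with a ratio under 1 stand against the same 51.6% of all genes measured. Of 22 nucleotide synthesis genes 17 (77.3%) had a ratio under 1, with a median of −0.10. TYMS, the thymidylate synthase, was the lowest of them, with 2815 counts in the knockdown library and 4418 in the control library, a ratio of 0.601. SAMHD1, which breaks down deoxynucleotides, was the highest at 1.15. Of 30 homologous recombination genes 27 (90.0%) had a ratio under 1, with a median of −0.12, and they ran from FANCF at 0.783, with 49 counts in the knockdown library and 59 in the control library, to FANCM at 1.22. Of 32 G2/M genes 19 (59.4%) did, with a median of −0.04. MYBL2, a MYB-family transcription factor of the cell cycle, was lowest at 0.645 and CENPF, a kinetochore protein gene, highest at 1.16. The interval lay below 1 for 50% of G1/S control, 45.5% of nucleotide synthesis, 37.5% of G2/M and 36.7% of homologous recombination genes. It did so for 19.4% of other replication factors and 20.9% of all genes measured. It lay above 1 for 18.2%, 9.09%, 15.6%, 6.67% and 22.6% of the lists in that order, against 20.3% of all genes measured. These shares are not matched for level either. The proliferation markers MKI67, TOP2A and CCNB1 stood at ratios of 1.01, 0.959 and 0.879 in that order.

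**Figure D5:**
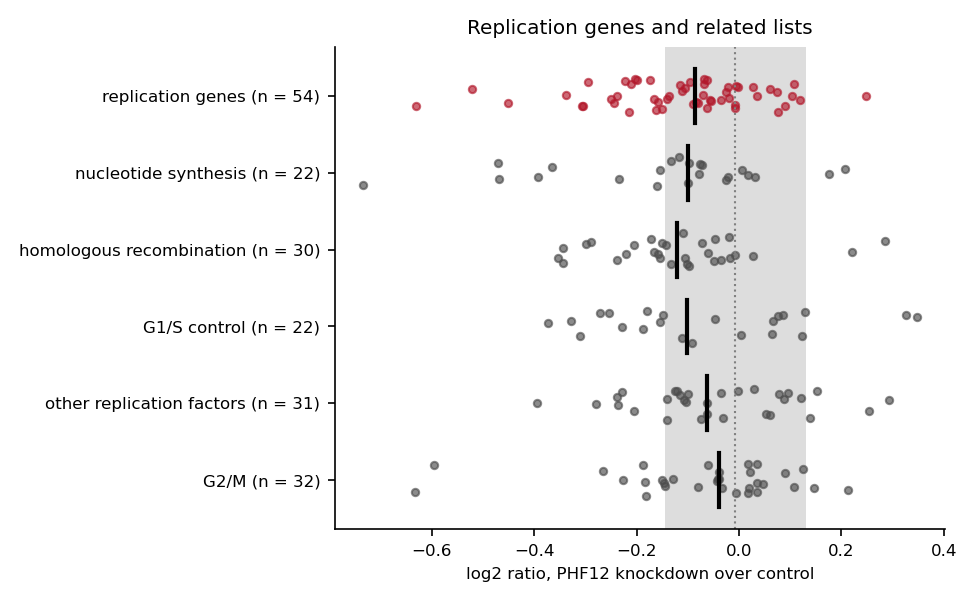
Log2 ratio of PHF12 knockdown over control for the replication genes and 5 related lists; points are genes, black ticks list medians, the dotted line the median of all genes measured and the grey band their middle 50%. All 6 medians lie left of the dotted line, between −0.12 and −0.04, and inside the grey band.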

How the data were processed

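RNA-seq was measured in 2 libraries of H1299, grouped by the treatment label, 1 library per group, with table columns matched to samples by title. Oligo(dT)-selected mRNA was sequenced as paired-end reads, per the labels' protocols. Per the submitters' processing notes, HISAT2, HTSeq and hg38 were used. No version or strand setting is given in the sources used here, so where genes overlap on opposite strands their reads are not separable. Of the 54 replication genes, 10 overlap a measured gene on the other strand. Raw counts and TPM per gene were deposited by the authors, per the file headers, and TPM rebuilt from counts and listed lengths differed by less than 1e-06. TMM factors came from edgeR 4.0.16 (R 4.3.3) and were 1.003 for the knockdown and 0.997 for the control library. Ratios carry no pseudocount. Intervals are Clopper-Pearson, conditional on the sum of both counts. The rest used Python 3.11.15 with scipy 1.17.1, pandas 2.3.3, numpy 2.4.6 and matplotlib 3.10.9, and ratios with their intervals were first tested on simulated data. Alternatives were DESeq2 1.42.0 size factors, total counts or the deposited TPM in place of TMM, a pseudocount of 0.5 or 1 CPM, no filter or one of 5 CPM, restriction to protein-coding genes, thinning of the knockdown library, and leaving out genes with an overlap or a pseudogene. Removal of a cubic trend on GC content and transcript length (GENCODE release 29) was chosen after seeing the data. The genes, steps, lists and rules of size were chosen with earlier results of these data known. Genes named with counts are those at least 1.2-fold lower or higher with an interval apart from 1, the extremes of each step and list, and PHF12. Counts of other members and of head-to-head neighbours were added after their values were seen.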

Additional observations from a re-analysis of the deposited data

How the results depend on the processing

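No paired analysis was possible because there is 1 library per group. Under the 12 alternatives, the median log2 ratio of the replication genes ranged from −0.09 to −0.06, while that of all genes measured ranged from −0.02 to 0.02. The number with a ratio under 1 was 40 of 54 with DESeq2 size factors or total counts and 38 of 54 on the deposited TPM, where 47.7%, 49.8% and 46.4% of all genes measured were lower. ORC2 was at least 1.2-fold higher with DESeq2 size factors and on the deposited TPM, so that count was 1 in place of 0. Without the 17 genes that overlap a listed gene on the other strand, 4 were at least 1.2-fold lower in place of 7. E2F2, MCM2 and LIG1 were left out, of which only MCM2 overlaps a measured gene. The median of the E2F factors was then −0.10 over the other 2. With a minimum of 5 CPM, 9.58% of all genes measured were at least 1.2-fold lower and 8.88% at least 1.2-fold higher. With the trend removed on GC content and transcript length, CDT1 stood at a log2 ratio of −0.35 in place of −0.45. The depth limits the less abundant genes: POLE2, with 240 counts in the knockdown library and 222 in the control library, had an interval of 0.846 to 1.23.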
